A study of Mus musculus with 23 samples.

Results

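The genes described here are the 10 genes Lgr5, Ascl2, Olfm4, Smoc2, Gkn3, Slc14a1, Aqp4, Tnfrsf19, Igfbp4 and Cdca7, a signature of the Lgr5-positive stem cells at the base of the intestinal crypt. They were taken by symbol from both tables that the authors deposited, where all 10 were present among 22517 named genes. RNA was sequenced from the epithelium of the proximal intestine of adult mice of a mixed B6;129 background, as 3 libraries in each of 3 groups. Eed-null villus came from EedF/F; Villin-CRE mice, which lose Eed, needed for Polycomb repressive complex 2 (PRC2), in the cells where the Villin promoter drives Cre. Intestinal stem cells (ISC) came from Eed+/+ mice with the Lgr5-EGFP-IRES-CREERT2 allele, sorted from enzymatically dissociated crypts for high GFP. Wild-type (WT) villus came from EedF/F; Cre- mice, whose Eed alleles are floxed and not recombined. The labels give 1 to 2 mg tamoxifen on 5 days for the mice of all 9 RNA libraries. Eed-null and WT villus therefore differ in Cre as well as in Eed. ISC and WT villus differ in sorting, dissociation, the CREERT2 allele of Lgr5 and the floxing of Eed as well as in cell type.

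Each table gives 1 value per group and gene, in RPKM (reads scaled by gene length and by mapped reads), so neither the variation among the 3 libraries of a group nor their depth is known, and whether groups overlap cannot be seen. The error behind a difference is known only through the p-value and q-value (the p-value adjusted over all genes tested) of the authors' deposited table. "Called" higher or lower means that the authors ran their test for a gene and its q did not exceed 0.05. The targeted gene, Eed, had 3.00 RPKM in Eed-null villus and 9.17 RPKM in WT villus (the authors' deposited table gives q = 6.29e-06). All 9 tested enterocyte markers were called lower in ISC than in WT villus, Sis with 15.9 RPKM in ISC and 1310 RPKM in WT villus, so the villus label matched its markers. The villus preparations also held transcripts of the crypt. Lyz1, the lysozyme of Paneth cells, had 699 RPKM in Eed-null villus and 879 RPKM in WT villus in the same table. The part of crypt cells in the villus levels given below was not tested.

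Lgr5-positive stem cells divide at the crypt base between Paneth cells, and their daughters differentiate while they move up onto the villus. Wnt signals, strengthened by R-spondins that bind Lgr5 and related receptors, and Notch signals from neighbouring cells keep them in the stem cell state. PRC2 places the repressive mark H3K27me3 on histones and is known for holding developmental genes silent in differentiated cells. Of the 10 genes, Lgr5 and Tnfrsf19 encode receptors, Ascl2 and Cdca7 nuclear proteins, Olfm4, Smoc2, Igfbp4 and Gkn3 secreted proteins, and Aqp4 and Slc14a1 membrane channels.

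The promoters of Olfm4, Gkn3 and Cdca7 are printed because these 3 genes had the smallest q in the comparison of Eed-null with WT villus. They are RefSeq sequences on build GRCm38.p6, from 250 bases before to 50 bases after the start of the gene, 5′ to 3′ on the gene's strand. Capitals mark matches, on either strand, of CTTTGA or CTTTGT (recognised by TCF/LEF factors of the Wnt pathway), TGGGAA (the core recognised by RBPJ of the Notch pathway), TTTCCCGC (an E2F motif) and CAGCTG (an E-box, recognised by basic helix-loop-helix factors such as Ascl2). No stretch matched more than 1 of these motifs. The lines give Olfm4 at chr14:80000052-80000351 on the plus strand, Gkn3 at chr6:87388886-87389185 on the minus strand and Cdca7 at chr2:72475969-72476268 on the plus strand.
Olfm4: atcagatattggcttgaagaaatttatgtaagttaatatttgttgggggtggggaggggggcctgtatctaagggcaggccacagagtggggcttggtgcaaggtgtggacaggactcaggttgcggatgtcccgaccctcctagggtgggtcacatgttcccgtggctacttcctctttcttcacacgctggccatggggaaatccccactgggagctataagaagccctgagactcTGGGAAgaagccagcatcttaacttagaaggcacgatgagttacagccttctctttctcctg
Gkn3: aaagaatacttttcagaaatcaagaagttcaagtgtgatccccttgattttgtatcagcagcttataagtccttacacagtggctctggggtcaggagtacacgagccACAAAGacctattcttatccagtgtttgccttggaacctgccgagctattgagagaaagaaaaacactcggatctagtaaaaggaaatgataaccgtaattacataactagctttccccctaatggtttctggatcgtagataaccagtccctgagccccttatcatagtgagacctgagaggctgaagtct
Cdca7: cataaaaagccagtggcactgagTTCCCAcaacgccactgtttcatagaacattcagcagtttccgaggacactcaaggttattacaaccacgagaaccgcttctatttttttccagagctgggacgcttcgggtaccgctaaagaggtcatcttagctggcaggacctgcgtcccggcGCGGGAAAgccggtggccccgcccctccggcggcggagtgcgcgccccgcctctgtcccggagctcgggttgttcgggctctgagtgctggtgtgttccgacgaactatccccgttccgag

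Olfm4 held TGGGAA on its own strand, beginning 12 bases upstream of the start. Gkn3 held CTTTGT on the opposite strand, with its farthest base 142 bases upstream. Cdca7 held TTTCCCGC on the opposite strand, with its farthest base 71 bases upstream, and TGGGAA on the opposite strand, with its farthest base 227 bases upstream. Among 32851 promoters of the same length, 25.6% held TGGGAA, 18.7% held CTTTGT, 16.0% held CTTTGA, 16.3% held CAGCTG and 1.07% held TTTCCCGC. A match is a string of letters and does not show that a factor binds there.

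The table of promoters held 7 entries for 6 of the 10 genes, with 2 starts for Tnfrsf19. CpG dinucleotides, which are dense in the promoters where PRC2 is usually found, divided these genes. Igfbp4 had 27 CpG in 300 bases, Cdca7 26, Ascl2 23 and the 2 starts of Tnfrsf19 14 and 13, whereas Gkn3 and Olfm4 had 5 each. The median over all promoters was 7, with quartiles at 3 and 20. Lgr5, Smoc2, Aqp4 and Slc14a1 are named only.

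All 10 genes were called higher in sorted ISC than in WT villus, where 32.3% of the 13007 genes tested were called higher and 30.5% lower. Their ratios ran from 11.8-fold for Cdca7 to 51.2-fold for Gkn3, with a median log2 ratio of 4.75, against a median of 0.10 over all tested genes. Scaled to 76 ribosomal protein genes, the median log2 ratio of the 10 genes was 2.83 and the lowest, that of Cdca7, was 1.63. In the authors' deposited table, q was 2.35e-14 for Tnfrsf19 and was printed as 0 for the other 9 genes. When all tested genes were ordered by their ISC excess, Gkn3 stood at position 23 and Cdca7, the last of the 10, at position 266. The 10 genes were chosen as a signature of Lgr5-positive stem cells, with earlier results of these data known. Their higher calls and positions in ISC were therefore largely fixed by that choice and are no independent result.

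**Figure D1:**
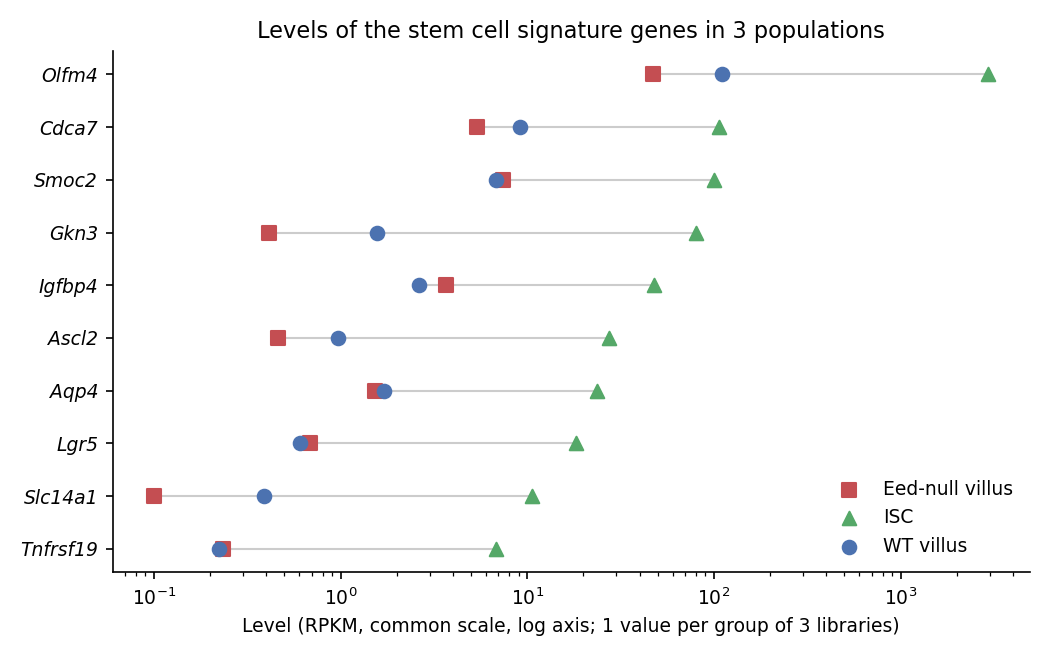
Level of each signature gene in RPKM on a log axis, with 1 value per group of 3 libraries; squares show Eed-null villus, triangles ISC and circles WT villus, all on the scale of the table that holds ISC. All 10 genes were highest in ISC, from 6.81 RPKM for Tnfrsf19 to 2939 RPKM for Olfm4, and the villus values of Gkn3, Slc14a1, Olfm4 and Ascl2 are the farthest apart by ratio.

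Among the receptors, Lgr5 (chr10:114887370-115024836 on build mm9, as for all loci that follow) had 18.3 RPKM in ISC and 0.607 RPKM in WT villus, a 30.1-fold difference. The ISC were sorted by GFP expressed from the Lgr5 locus, so Lgr5 chose the cells and its difference is no finding. Tnfrsf19 (chr14:61582671-61665692), a receptor of the tumour necrosis factor family also called Troy, had the lowest ISC level of the 10 genes, at 6.81 RPKM, and 0.224 RPKM in WT villus. Its 30.4-fold ratio was almost that of Lgr5.

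Ascl2 (chr7:150152727-150155169), a transcription factor that controls stem cell identity under Wnt signals, had 27.4 RPKM in ISC and 0.969 RPKM in WT villus, a 28.3-fold difference. Cdca7 (chr2:72314276-72324947), a zinc finger protein of dividing cells that recruits a chromatin remodeller, had 107 RPKM in ISC and 9.11 RPKM in WT villus. It had the smallest ratio of the 10 genes and the highest villus level after Olfm4.

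Olfm4 (chr14:80400109-80421737), a secreted glycoprotein, was by far the most abundant transcript of the signature. It had 2939 RPKM in ISC, the tenth highest level listed there, and 110 RPKM in WT villus. That order leaves unranked 7 genes, Lyz1 among them, that are listed at 0 in ISC with a status of too much data or of a failed estimate. Olfm4 made up 87.5% of the summed level of the 10 genes in ISC and 82.1% in WT villus. Smoc2 (chr17:14416513-14541797), a calcium-binding matrix protein, had 100.3 RPKM in ISC and 6.78 RPKM in WT villus. Smoc2 shares its locus entry with 4930474M22Rik, so the reads of these genes cannot be assigned with certainty, and none of the other 9 genes overlapped another entry. Igfbp4 (chr11:98902574-98913957), which binds insulin-like growth factors, had 47.6 RPKM in ISC and 2.64 RPKM in WT villus. Gkn3 (chr6:87333313-87338929), a gastrokine first known from the stomach, had the steepest contrast, with 79.8 RPKM in ISC and 1.56 RPKM in WT villus.

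Aqp4 (chr18:15547903-15562193), a water channel best known from astrocytes, had 23.7 RPKM in ISC and 1.70 RPKM in WT villus. Slc14a1 (chr18:78296830-78338858), a urea transporter, had 10.6 RPKM in ISC and 0.391 RPKM in WT villus. In WT villus, Lgr5, Ascl2, Slc14a1 and Tnfrsf19 were below 1 RPKM, and the 10 genes stood between 1.95% and 8.51% of their ISC level. In such bulk samples, fewer cells of a type and less RNA per cell cannot be told apart.

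Most other stem cell genes were also higher in ISC. Of 26 related genes of the crypt base, 23 were called higher in ISC and none lower, with a median log2 ratio of 2.95. For this count and those that follow, 32.3% of all tested genes were called higher and 30.5% lower. Slc12a2, an ion cotransporter of crypt cells, had 215 RPKM in ISC and 14.4 RPKM in WT villus, and Msi1, an RNA-binding protein, had 16.4 RPKM in ISC and 0.863 RPKM in WT villus. Sp5, Pdgfa and Vdr were not called. Of 21 tested Wnt pathway genes, 14 were called higher and 2 lower, with Cd44, a surface receptor and Wnt target, at 21.9 RPKM in ISC and 1.61 RPKM in WT villus. Lgr4, the other R-spondin receptor of the epithelium, had 27.1 RPKM in ISC and 19.6 RPKM in WT villus and was not called. Its value was above that of Lgr5 in both groups, a comparison of genes with 1 value per group and no test. The ISC mice carried the Lgr5-EGFP-IRES-CREERT2 allele, whose part in the Lgr5 level was not tested. The R-spondin genes Rspo1, Rspo2 and Rspo3 were listed at 0 in both groups. Of 14 Notch pathway genes, 9 were called higher and none lower, led by Notch1, with 15.3 RPKM in ISC and 0.918 RPKM in WT villus.

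Genes of other cell types and of handling moved along with this comparison, in which 32.3% of all tested genes were called higher in ISC and 30.5% lower. The 13 proliferation genes were all called higher in ISC, with a summed level of 606 RPKM in ISC and 151 RPKM in WT villus. Genes of the response to dissociation were called higher in 10 of 10 cases, with 1172 RPKM summed in ISC and 179 RPKM in WT villus. Of 5 tested markers of Paneth cells, 4 were higher in ISC by the same rule, and the sum over these 5 genes was 6490 RPKM in ISC and 2631 RPKM in WT villus. Lyz1, Defa24 and Defa17 are listed at 0 in ISC with a status of too much data, so they were left out. The part of these differences in the signature result was not tested. Markers of enteric glia and of stroma, cells that can express Aqp4, Smoc2 or Igfbp4, were low. The 5 glial markers summed to 0.466 RPKM in ISC and 0.136 RPKM in WT villus, with Fabp7 at 0 in ISC and Sox10 at 0 in WT villus. Of the 7 mesenchymal markers Col3a1 and Lum were at 0 in ISC and Lum in WT villus, and Vim alone held 7.72 of the 7.76 RPKM summed in ISC and 1.36 of the 1.72 RPKM summed in WT villus.

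**Figure D2:**
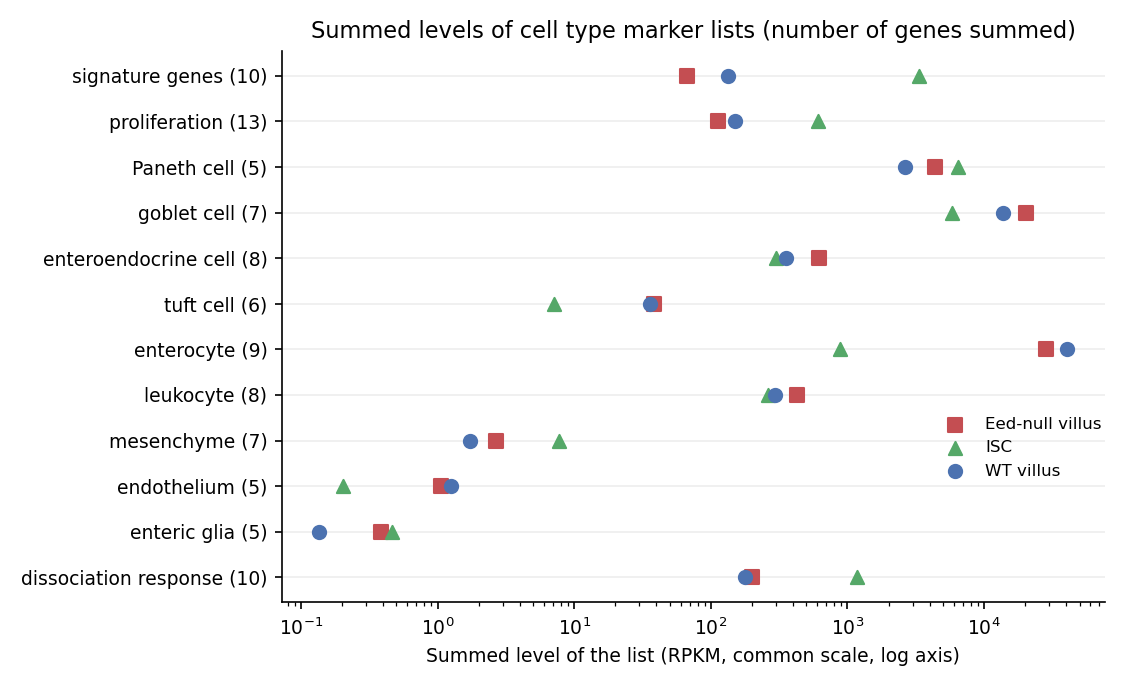
Summed RPKM of each marker list on a log axis, on the scale of the table that holds ISC, with the number of genes summed in brackets and 1 value per group; squares show Eed-null villus, triangles ISC and circles WT villus. The signature summed to 67.2 RPKM in Eed-null villus, 3361 RPKM in ISC and 134 RPKM in WT villus. Olfm4 made up 70.3% of the sum in Eed-null villus, 87.5% in ISC and 82.1% in WT villus. Without Olfm4, the signature summed to 19.97 RPKM in Eed-null villus, 421 RPKM in ISC and 23.98 RPKM in WT villus.

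Between Eed-null and WT villus, 1 of the 8 signature genes tested was called, and none was called higher. Olfm4 fell to 40.6 RPKM in Eed-null villus, against 94.5 RPKM in WT villus (q = 6.18e-06, authors' deposited table). Over all 12525 genes tested, 3.46% were called lower and 7.90% higher. The median log2 ratio of the 8 tested signature genes was the same as that of all 10, at -0.45, against -0.08 over all tested genes. Slc14a1 and Tnfrsf19 carried the authors' status of not tested, so their values stand without a call. The q-values and ratios of this comparison share the WT villus libraries with the comparison above.

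The genes below WT villus in value were Slc14a1, Gkn3, Olfm4, Ascl2, Cdca7 and Aqp4. Of the 8 tested signature genes 5 had lower values, beside 57.7% of all 12525 genes tested, so that count is near the background. Gkn3 had 0.356 RPKM in Eed-null villus and 1.34 RPKM in WT villus, a log2 ratio of -1.91, and just missed the threshold with q = 0.0526 in the authors' deposited table. Cdca7 had 4.66 RPKM in Eed-null villus and 7.84 RPKM in WT villus (q = 0.0624, authors' deposited table). Ascl2 had 0.396 RPKM in Eed-null villus and 0.834 RPKM in WT villus (q = 0.19, authors' deposited table). By unadjusted p at or below 0.05, Olfm4, Gkn3, Cdca7 and Ascl2 would have counted as lower, 4 of 8, where 8.82% of all tested genes did. Slc14a1 had 0.0865 RPKM in Eed-null villus and 0.337 RPKM in WT villus, the lowest ratio of the 10 genes. Aqp4 had 1.32 RPKM in Eed-null villus and 1.46 RPKM in WT villus (q = 0.889, authors' deposited table).

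The genes above WT villus in value were Lgr5, Smoc2, Tnfrsf19 and Igfbp4, none of them called. Lgr5 had 0.592 RPKM in Eed-null villus and 0.523 RPKM in WT villus (q = 0.894, authors' deposited table). Smoc2 had 6.40 RPKM in Eed-null villus and 5.84 RPKM in WT villus (q = 0.872, authors' deposited table). Tnfrsf19 had 0.203 RPKM in Eed-null villus and 0.193 RPKM in WT villus. Igfbp4 had 3.18 RPKM in Eed-null villus and 2.27 RPKM in WT villus, a log2 ratio of 0.49, with q = 0.493 in the authors' deposited table. The values of the 10 genes lay on both sides of WT villus, with log2 ratios from -1.96 for Slc14a1 to 0.49 for Igfbp4.

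**Figure D3:**
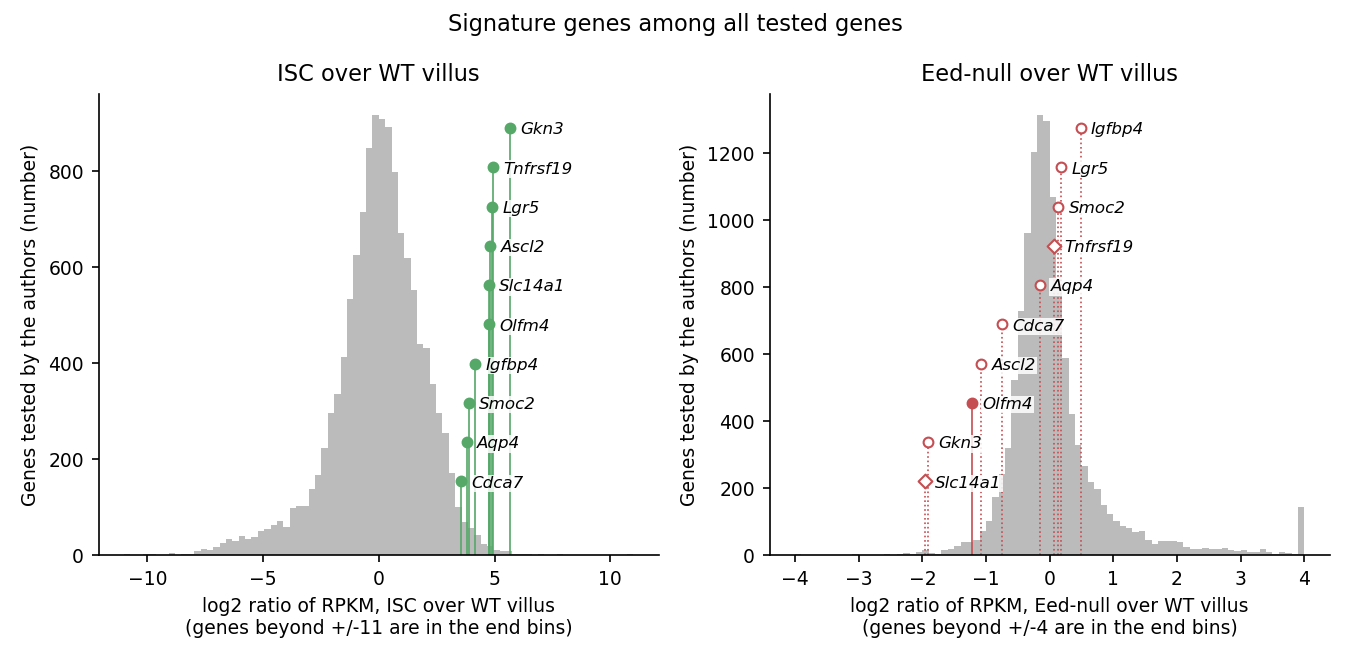
Log2 ratios of RPKM for ISC over WT villus (left) and Eed-null over WT villus (right), with grey bars counting all genes the authors tested and stems marking the signature genes; filled points were called, open circles were not, and open diamonds were not tested. In the left panel all 10 genes lie at log2 ratios of 3.55 or more, and in the right panel Olfm4 alone is called.

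Proliferation genes and enterocyte markers also had lower values in Eed-null villus. Over all 12525 genes tested, 57.7% had lower values in Eed-null villus. Of 13 proliferation genes, 12 had lower values and Mki67 alone was called, with 3.85 RPKM in Eed-null villus and 6.18 RPKM in WT villus. The median log2 ratio of that list was -0.46, close to the -0.45 of the signature. All 9 tested enterocyte markers had lower values, of which 2 were called. Of 8 Paneth cell markers, 1 was called higher and none lower, and of 7 goblet cell markers 3 were called higher and none lower. Enteroendocrine markers were called higher in 2 of 8 cases and lower in none, and none of 6 tuft cell markers was called. Beside these counts, 7.90% of all tested genes were called higher and 3.46% lower. Endothelium can express Slc14a1, and its markers differed in both directions. Tek, an angiopoietin receptor, had 0.191 RPKM in Eed-null villus and 0.762 RPKM in WT villus of the table that compares them, and was called lower (q = 0.000508, authors' deposited table). Plvap, a protein of endothelial fenestrae, had 0.544 RPKM in Eed-null villus and 0.165 RPKM in WT villus and was not called. On the scale of the table that holds ISC, the 5 endothelial markers summed to 1.06 RPKM in Eed-null villus and 1.26 RPKM in WT villus, where Cdh5 and Kdr were at 0. The part of these differences in the Olfm4 result, the Slc14a1 value and the other values was not tested.

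The related genes of the crypt base that were called were all higher in Eed-null villus. Of 26 related genes, 23 were tested, 5 were called higher and none lower, with a median log2 ratio of 0.28. The shares over all tested genes were 7.90% called higher and 3.46% called lower. Cd44 had 5.91 RPKM in Eed-null villus and 1.38 RPKM in WT villus (q = 4.37e-09, authors' deposited table). Soat1, which esterifies cholesterol, had 8.34 RPKM in Eed-null villus and 2.35 RPKM in WT villus, and Phlda1, a regulator of growth signalling, had 21.8 RPKM in Eed-null villus and 8.75 RPKM in WT villus. Ephb3, a receptor that positions cells in the crypt, had 3.39 RPKM in Eed-null villus and 0.963 RPKM in WT villus, and Sox9, a transcription factor of crypt cells, was the other gene called. Whether the lists differ was not tested.

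**Figure D4:**
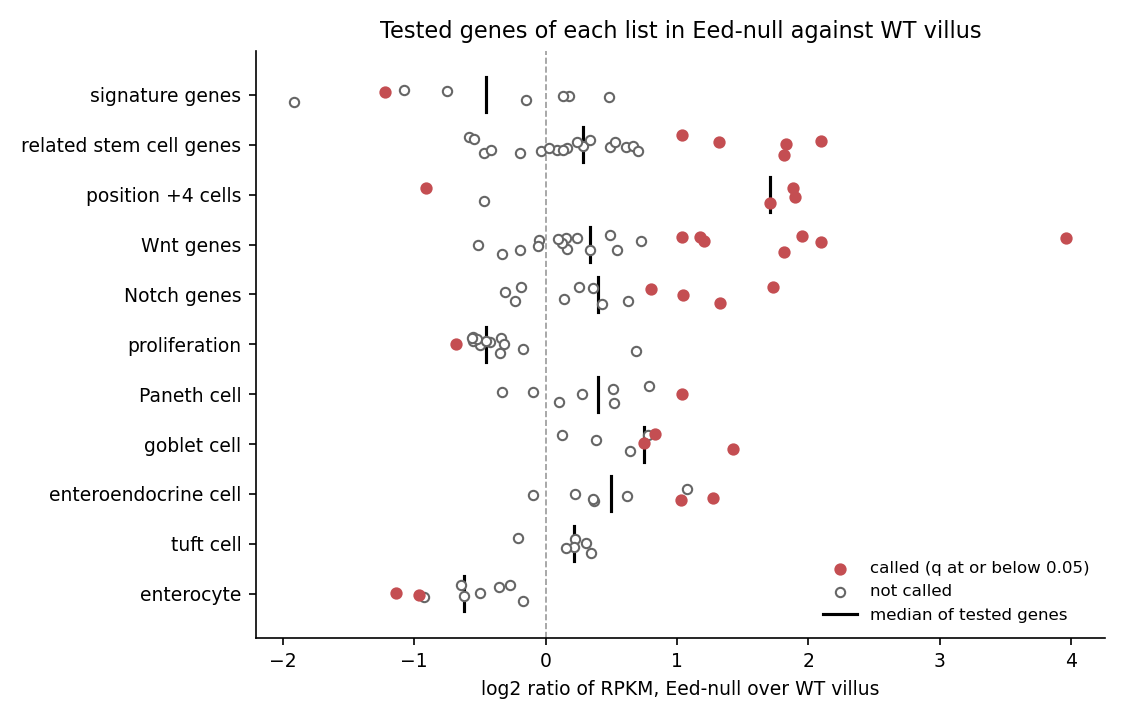
Log2 ratio of RPKM, Eed-null over WT villus, for the tested genes of each list; filled points were called at q at or below 0.05, open points were not, and black bars mark the median of the tested genes. The signature median lies at -0.45, that of the related stem cell genes at 0.28 and that of the genes listed for position +4 at 1.71.

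Of 5 genes listed here for reserve cells near position +4 of the crypt, 3 were called higher in Eed-null villus and 1 lower. How well each gene, Clu included, marks that position was not tested. The median log2 ratio of the list, 1.71, is the value of Clu. Over all tested genes, 7.90% were called higher and 3.46% lower. Lrig1, which is also among the related stem cell genes, was not called. In ISC, 4 of the 5 genes, all but Hopx, were likewise called higher than in WT villus, so the list does not set position +4 apart from sorted ISC. Bmi1, a subunit of Polycomb repressive complex 1, had 12.0 RPKM in Eed-null villus and 3.25 RPKM in WT villus. Tert, the catalytic subunit of telomerase, had 3.35 RPKM in Eed-null villus and 0.898 RPKM in WT villus, and Clu, a secreted chaperone, had 1.53 RPKM in Eed-null villus and 0.468 RPKM in WT villus. Hopx, a homeodomain protein, was called lower, with 29.3 RPKM in Eed-null villus and 54.9 RPKM in WT villus. Of 21 tested Wnt pathway genes, 7 were called higher and none lower, with Cd44, Ephb3 and Sox9 in both this list and that of the related stem cell genes. Apcdd1, a membrane inhibitor of Wnt signals, had 4.87 RPKM in Eed-null villus and 0.313 RPKM in WT villus, and Fzd7, a Wnt receptor, had 4.67 RPKM in Eed-null villus and 2.08 RPKM in WT villus. Of 12 tested Notch pathway genes, 4 were called higher and none lower, among them Notch1, with 1.63 RPKM in Eed-null villus and 0.790 RPKM in WT villus. The Notch ligand Jag1 had 3.01 RPKM in Eed-null villus and 1.20 RPKM in WT villus. Hes1, a direct Notch target, had 13.8 RPKM in Eed-null villus and 8.94 RPKM in WT villus and was not called.

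Set on 1 scale through the WT villus values that both tables hold, all 10 genes had lower values in Eed-null villus than in ISC, a difference for which neither table holds a test. The WT villus values of the tables differed by a constant factor of 1.16193, by which the Eed-null values were multiplied. On that scale Olfm4 had 47.2 RPKM in Eed-null villus and 2939 RPKM in ISC, and Lgr5 had 0.688 RPKM in Eed-null villus and 18.3 RPKM in ISC. Eed-null villus held between 0.519% of the ISC level, for Gkn3, and 7.75%, for Igfbp4. For Slc14a1 that share was 0.951% in Eed-null villus and 3.70% in WT villus, and for Lgr5 it was 3.77% in Eed-null villus and 3.32% in WT villus. The order of levels was led by Olfm4, Cdca7, Smoc2 and Gkn3 in ISC, and by Olfm4, Smoc2, Cdca7 and Igfbp4 in Eed-null villus. In WT villus it was led by Olfm4, Cdca7, Smoc2 and Igfbp4. Cdca7 and Smoc2 were within 1.5-fold of each other in all 3 groups, and without a spread over libraries no neighbours in these orders can be called different.

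Among the genes whose pair of log2 ratios lay nearest to that of Lgr5, by Euclidean distance over 3 groups and 11959 candidate genes, were Smo, Sorbs2, Snord16a and Msi1. Smo, the membrane protein that relays hedgehog signals, had 13.5 RPKM in ISC and 0.643 RPKM in WT villus, and 0.719 RPKM in Eed-null villus and 0.554 RPKM in WT villus in the other table. Its distance was 0.56 log2 units. Snord16a, a small nucleolar RNA that shares its locus entry with another gene, was not called in either table, so its values are uncertain. Among the 7 other signature genes with a test in both tables, Igfbp4 was the nearest to Lgr5, at position 8, and Gkn3 the farthest, at position 398. Tnfrsf19 and Slc14a1 had no test in Eed-null villus and were no candidates, and the distance of Tnfrsf19 from Lgr5, 0.110, was smaller than the 0.797 of Igfbp4. A likeness over 3 group values is shared by many genes.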

How the data were processed

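Both tables were made and deposited by the authors, 1 for WT villus with ISC and 1 for Eed-null with WT villus. Per the file headers, the values of the first are RPKM; the second names no unit, and RPKM was inferred from its WT villus values, which equal those of the first divided by 1.16193 (1.16192 to 1.16194 over 10353 genes). The p-value and q-value per gene are the authors', per the file headers. Per the submitters' processing notes, TopHat2 2.0.6, Cufflinks 2.0.1, Bowtie, Cuffdiff and build mm9 were used, with no roles given; the annotation they were run with is likewise not given. Libraries were unstranded TruSeq V2 read as 75 bp single ends, per the labels' protocols.

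Ratios were computed from RPKM with no pseudocount, in Python 3.11.15 with pandas 2.3.3, so no model was fitted. Only genes with status OK count as tested. In these tables no gene was tested below 0.246 RPKM (first) or 0.351 RPKM (second) in its higher group. The entry naming no gene was left out. Locus starts were raised by 1, since end minus start equals the RefSeq length for 7039 of 20864 genes and differs from it by 1 base for 470. Besides the motifs in capitals, the promoters were searched for CANNTG of any E-box, TATAAA of the TATA box, AGATAA of GATA factors, TTTATG of CDX factors and CAAAGTCCA of HNF4, whose matches are not marked. The counting and distance steps were tested on simulated data. The genes and lists were chosen with earlier results of these data known, from general knowledge. Named genes are the members, Eed, the 5 nearest to Lgr5 and up to 4 called genes per list and comparison with the largest difference of log2(RPKM + 1); Lgr4, Rspo1 to Rspo3, Hes1, Sp5, Pdgfa and Vdr were named after their values were seen. Not every gene so chosen is reported here. The 14 chromatin and input libraries were not analysed here.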

Additional observations from a re-analysis of the deposited data

How the results depend on the processing

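The 10 higher calls in ISC and the Olfm4 call in Eed-null villus held at q at or below 0.01 and with at least 1 RPKM required in the higher group. Unadjusted p at or below 0.05 gave 4 lower calls in Eed-null villus in place of 1. With a pseudocount of 1 RPKM, the signature median in Eed-null over WT villus was -0.19 in place of -0.45. The log2 ratio of Gkn3 there was -0.79 in place of -1.91, and that of Slc14a1 was -0.30 in place of -1.96. The median log2 ratio of the signature in ISC over WT villus, 4.75 as reported, was 3.64 with a pseudocount of 1 RPKM and 2.83 when scaled to 76 ribosomal protein genes, which were themselves 1.92 log2 units higher in ISC. Under the same scaling, whose shift is 0.11 log2 units in Eed-null over WT villus, the log2 ratio of Tnfrsf19 there was -0.041 in place of 0.071. No other direction changed, also when ratios were centred on the median of all genes at 1 RPKM or more, which was -0.02 in ISC and -0.10 in Eed-null villus. No paired analysis was possible because the tables hold 1 value per group, and no library could be left out for the same reason. With the depth unknown, no limit can be put on values below 1 RPKM.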

Other observations

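Of 28 paralogs of the signature genes, 13 were tested between ISC and WT villus, where 4 were called higher and 5 lower, beside 32.3% higher and 30.5% lower over all tested genes. Both counts are near that background. Cdca7l, the relative of Cdca7, was higher in ISC, with 19.8 RPKM in ISC and 2.24 RPKM in WT villus. Of 5 tested water channels other than Aqp4, 4 were called lower in ISC. Aqp3 had 0.260 RPKM in ISC and 38.7 RPKM in WT villus, Aqp7 had 0.318 RPKM in ISC and 23.0 RPKM in WT villus, and Aqp11 had 11.7 RPKM in ISC and 72.4 RPKM in WT villus, Aqp8 was the other gene called, and Aqp1 was not called.

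In Eed-null villus, 4 of 15 tested paralogs were called higher and 1 lower, beside 7.90% higher and 3.46% lower over all tested genes. Gkn1, a gastrokine of the stomach and relative of Gkn3, had 8.02 RPKM in Eed-null villus and 0.228 RPKM in WT villus (q = 1.21e-12, authors' deposited table). Eda2r, a receptor of the same family as Tnfrsf19, had 4.92 RPKM in Eed-null villus and 0.0459 RPKM in WT villus (q = 1.21e-07, authors' deposited table). Aqp8 had 12.8 RPKM in Eed-null villus and 3.39 RPKM in WT villus. Aqp1 was the gene called lower, with 28.9 RPKM in Eed-null villus and 87.4 RPKM in WT villus. Gkn1 and Eda2r had values below 0.351 RPKM in WT villus, the lowest level at which any gene was tested in its higher group.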
